A study of Mus musculus with 26 samples.

Results

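MicroRNAs (miRNAs) of the hippocampal CA1 field were compared between 7 libraries of transgenic CamkdeltaC mice on vehicle and 8 libraries of wild type littermates on vehicle. The 15 libraries were chosen from 26 by group and depth. Every transgenic vehicle library entered, and the wild type vehicle library with replicate number 1 was left out because its 585188 counts made it the only library under 1000000. The remaining 10 libraries came from transgenic mice given Vorinostat and are not compared here. CamkdeltaC mice serve as a model of heart failure and are named after the delta C variant of a calcium-activated kinase, CaMKII, and the series asked how heart failure relates to impaired memory. Both groups drank water with vehicle for 4 weeks, starting when the mice were 2 months old and ending at 3 months. Both sexes were used, but the sources used here give neither the sex behind each library nor the promoter that drives the transgene. CA1 was cut out under a microscope, and small RNA was read as single ends of 50 bp. Whether each library came from a separate mouse is not stated in the labels, so the p-values below rest on spread between libraries that may in part be technical.

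A miRNA is a short RNA that guides an Argonaute protein to matching sites in messenger RNAs, which are then translated less or degraded. Pairing is led by the seed, a short stretch near the 5′ end, so miRNAs with the same seed share many targets. Each hairpin precursor can give a 5p and a 3p strand, of which usually one is kept and the other mostly degraded. In CA1, the output field of the hippocampus that memory formation needs, miRNAs of neurons dominate, and glia, vessels and blood add their own. Because CA1 is a mixed tissue, fewer cells of a type and less of a miRNA per cell cannot be told apart.

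Depth ran from 9.13 to 17.6 M counts (M, counts in units of 1000000) in the 8 wild type libraries and from 6.01 to 24.8 M in the 7 transgenic ones. Mean log10 depth was 7.07 ± 0.0974 (SD, n = 8) against 7.06 ± 0.240 (SD, n = 7), a difference smaller than the spread within either group (exact permutation test, two-sided, adjusted p = 0.913 over 4 measures). The 10 most abundant miRNAs took 70.3% ± 1.04 of the counts in wild type and 69.9% ± 1.13 in transgenic libraries (adjusted p = 0.847, exact permutation test). At least 10 CPM (counts per 1000000 counts of the library) were reached by 335 ± 9.23 and 339 ± 8.93 miRNAs (adjusted p = 0.847, exact permutation test). miRNAs of neurons were abundant. miR-124-3p, a miRNA of neurons, stood between 4307 and 12252 CPM, whereas the heart-restricted miR-208a-3p had at most 0.0743 CPM in any of the 15 libraries.

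The first set of sequences shows 7 of the miRNAs with an unadjusted p under 0.05 between genotypes, and miR-340-5p, the most abundant of the 10 chosen on the higher side, since the comparison turned on whether any of them stood apart from the spread. Seeds (bases 2 to 8) are in capitals, sequences run 5′ to 3′ and are from RefSeq on GRCm38.p6, and no seed is shared among these miRNAs.
miR-219a-5p: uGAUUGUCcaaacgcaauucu
miR-532-3p: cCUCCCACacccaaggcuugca
miR-144-3p: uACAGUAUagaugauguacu
miR-340-5p: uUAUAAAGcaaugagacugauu
miR-222-3p: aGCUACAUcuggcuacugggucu
miR-301a-5p: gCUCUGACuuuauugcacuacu
miR-1306-3p: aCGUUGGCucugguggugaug
miR-188-5p: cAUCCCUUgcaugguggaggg

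The second set marks the ends of the main pattern that separated libraries regardless of genotype, described further on. The first 4 were high where the last 4 were low. miR-708-5p and miR-708-3p come from the same hairpin, and miR-30a-3p and miR-30e-3p share the seed UUUCAGU.
miR-369-3p: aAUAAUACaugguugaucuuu
miR-335-5p: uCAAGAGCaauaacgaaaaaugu
miR-16-5p: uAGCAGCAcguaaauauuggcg
miR-708-5p: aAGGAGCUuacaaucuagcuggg
miR-708-3p: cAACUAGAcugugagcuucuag
miR-30a-3p: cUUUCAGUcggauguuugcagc
miR-30e-3p: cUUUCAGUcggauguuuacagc
miR-423-3p: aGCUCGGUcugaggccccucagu

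No miRNA differed between transgenic and wild type CA1 past an adjusted p of 0.05. Among 561 miRNAs tested, 0 were called (0.0%) by the quasi-likelihood test of edgeR, and the smallest Benjamini-Hochberg adjusted p was 0.996. Without wild type replicate 6, which had the highest wild type level of the leading miR-219a-5p, it was 0.468 over 556 miRNAs. The same count was 0 with DESeq2 and 0 with limma voom. At an unadjusted p under 0.05, edgeR gave 10 miRNAs (1.78%), DESeq2 13 (2.32%) and voom 10 (1.78%). With the shallow wild type replicate 1 put back, 0 were called (0.0%) and 13 of 563 had an unadjusted p under 0.05 (2.31%). Of the 10, 4 were higher (0.713%) and 6 lower (1.07%) in transgenic libraries. For 0 of the 561 miRNAs (0.0%) did the 7 transgenic CPM values all lie above, or all below, the 8 wild type values. By sign alone, 260 estimates were positive and 301 negative, with a median log2 difference of -0.020.

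The intervals gave the size of change the libraries could exclude for each miRNA. The 95% interval of the log2 difference, not adjusted for the number of miRNAs, lay inside a 2-fold change in either direction for 467 of 561 miRNAs (83.2%). It lay inside a 1.41-fold change for 159 of 561. Abundance decided much of this. Of 342 miRNAs with a mean of at least 10 CPM, 320 (93.6%) were bounded within 2-fold, and of the 67 with at least 1000 CPM, 66 were. Of the 219 under 10 CPM, 147 (67.1%) were. The largest estimate of either sign was 0.87 on the log2 scale, so none reached a 2-fold change.

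**Figure D1:**
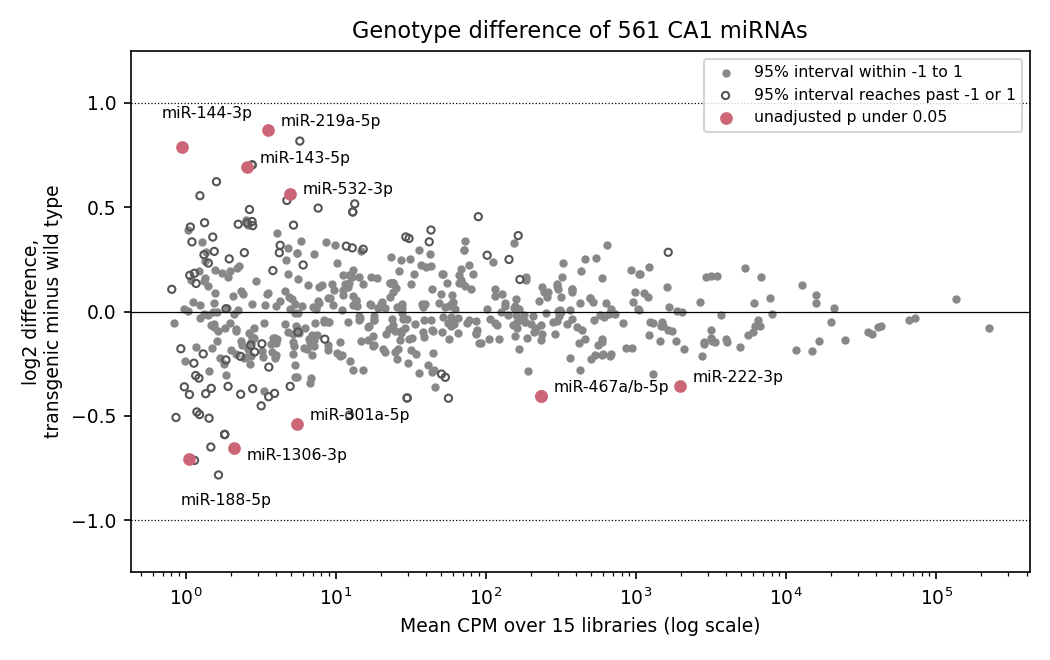
Log2 difference between genotypes (transgenic minus wild type, y axis) against mean CPM on a log scale (x axis) for the 561 miRNAs tested, 1 point each. Filled grey points have a 95% interval within -1 to 1, open points reach past it, and red points have an unadjusted p under 0.05. All estimates lie between the dotted lines at -1 and 1, and the open points gather at low CPM.

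The most abundant miRNAs had estimates close to 0 with narrow intervals. miR-128-3p, a brain-enriched regulator of neuronal excitability and the most abundant miRNA here, ranged from 181307 to 283029 CPM in wild type libraries (median 230540) and from 154395 to 267161 (median 219972) in transgenic ones. The ranges overlapped over most of their length. Its log2 difference was -0.077 (SE 0.127), with a 95% interval from -0.34 to 0.19. miR-9-5p, which acts in neural progenitors and neurons, had 131992 ± 15528 CPM (SD, n = 8) against 137516 ± 5858 (SD, n = 7) and a log2 difference of 0.059 (SE 0.087, interval -0.12 to 0.24). This was the tightest interval among the 10 most abundant miRNAs. For let-7c-5p, of the let-7 family that marks differentiated cells, the difference was -0.098 (SE 0.092), and for let-7f-5p it was -0.071 (SE 0.101). The differences of miR-26a-5p, miR-99a-5p, miR-218-5p and miR-7a-5p were -0.039, -0.031, -0.11 and -0.14, all with SEs between 0.107 and 0.182. The imprinted miR-127-3p and miR-125b-5p had wider SEs, 0.243 and 0.195, around differences of -0.073 and 0.015. Among these 10, the bounds excluded a 2-fold change in each case.

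The leading miRNA on the higher side was miR-219a-5p, which promotes the maturation of oligodendrocytes, the myelinating cells. It had 1.44, 1.78, 2.33, 4.36, 5.21, 1.19, 2.36 and 1.72 CPM in wild type replicates 2 to 9. In transgenic replicates 2, 3, 5, 6, 8, 9 and 10 it had 5.05, 5.04, 5.18, 6.83, 2.48, 4.01 and 4.27 CPM. Wild type replicates 5 and 6 lay among the transgenic values, and 6 of 7 transgenic libraries were above the wild type mean. Only transgenic replicate 6, at 6.83 CPM, was above the highest wild type library, at 5.21 CPM. All other transgenic libraries lay inside the wild type range. The log2 difference was 0.87 (SE 0.312, 95% interval 0.21 to 1.53), with an unadjusted p of 0.0123 and an adjusted p of 0.996 in edgeR. These levels rest on 12 to 136 reads a library. RefSeq places this mature sequence at 2 loci, of which chr2:29845689-29845709 on the minus strand of GRCm38 lies in no annotated host gene. Leaving out any 1 library kept the estimate between 0.77 and 1.16, and the unadjusted edgeR p stayed at or under 0.024.

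Other miRNAs of oligodendrocytes gave smaller estimates. miR-219a-2-3p, the opposite strand of a hairpin that yields miR-219a-5p, was far more abundant, at 870 ± 232 CPM in wild type and 999 ± 217 in transgenic libraries. Its log2 difference was 0.20 (SE 0.178). miR-338-3p, which acts with miR-219 in myelination, had 144 ± 45.5 against 186 ± 111 CPM and a difference of 0.36 (SE 0.309), and 0.18 without transgenic replicate 5. For both, the groups overlapped and the 95% interval held 0. Across the 9 of 10 listed oligodendrocyte miRNAs that were tested, 0 were called, 7 estimates were positive, and the median difference was 0.20 beside -0.020 over all 561. With the library score as a covariate the median was 0.12, and without wild type replicate 9 it was 0.37. The list's level varied between libraries by an SD of 0.30 on the log2 scale. Their summed level ran from 1696 to 2083 CPM in wild type and from 1559 to 2799 in transgenic libraries, so the transgenic range enclosed the wild type one.

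miR-532-3p and miR-188-5p both lie in intron sequence of the chloride channel gene Clcn5 on the X chromosome and had estimates of opposite sign. miR-532-3p (chrX:7248419-7248440) ranged from 2.11 to 5.58 CPM (median 4.11) in wild type and from 4.58 to 8.39 (median 5.74) in transgenic libraries. All 7 transgenic values were above the wild type mean and 4 were above its highest library. The difference was 0.56 (SE 0.239, unadjusted p = 0.0298, edgeR). miR-188-5p (chrX:7248031-7248051), known for a role at dendritic spines, ranged from 0.787 to 1.63 CPM (median 1.42) in wild type and from 0.318 to 1.40 (median 0.737) in transgenic libraries. Here 5 of 7 transgenic values were below the lowest wild type library, but each rests on only 2 to 25 reads. The difference was -0.71 (SE 0.275, unadjusted p = 0.0193, edgeR). miR-500-3p, also in intron sequence of Clcn5 (chrX:7237695-7237716), had a difference of 0.44 (SE 0.215). miR-532-5p, the main strand of the miR-532 hairpin at 619 ± 244 CPM in wild type, had -0.027 (SE 0.245). The estimates of these scarce strands from Clcn5 thus went in both directions. That of miR-532-5p was near 0 with a 95% interval from -0.54 to 0.49.

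miR-143-5p, miR-144-3p and miR-340-5p completed the higher side. miR-143-5p, the minor strand of a smooth muscle hairpin, had 1.98 ± 0.511 CPM (SD, n = 8) against 3.24 ± 1.61 (SD, n = 7). Its largest value, 6.19 CPM, was in transgenic replicate 6, the shallowest of the 15 libraries. The difference was 0.69 (SE 0.280) with all libraries and 0.52 without that one. miR-143-3p, the main strand, had 2961 ± 1312 against 3331 ± 1124 CPM and a difference of 0.17 (SE 0.270). miR-144-3p, of red blood cells, had 0.692 ± 0.369 against 1.23 ± 0.428 CPM from 2 to 29 reads a library, with a difference of 0.79 (SE 0.354). Its sister strand miR-144-5p had 2.18 ± 0.843 against 2.23 ± 1.69 CPM, and miR-451a, from the same red cell cluster, 177 ± 34.8 against 196 ± 55.0 CPM. Their log2 differences of 0.0092 (SE 0.449) and 0.15 (SE 0.179) had intervals that held 0.

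miR-340-5p (chr11:50069720-50069741, in an intron of Rnf130) was the most abundant of the 10 miRNAs chosen on the higher side. Its level ran from 413 to 764 CPM (median 528) in wild type and from 447 to 937 (median 724) in transgenic libraries. The lower part of the transgenic range lay inside the wild type range, and 3 of 7 transgenic libraries were above it. The difference was 0.32 (SE 0.167, unadjusted p = 0.0723, edgeR). With the score of the main library pattern as a covariate it was 0.27 (unadjusted p = 0.033, edgeR), an alternative added after seeing the data, with a score built from the same values. The remaining miRNAs chosen on this side were miR-3084-5p, miR-124-5p, miR-181c-3p and miR-203-3p, with differences of 0.41, 0.33, 0.26 and 0.23 and unadjusted edgeR p-values from 0.0686 to 0.107.

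On the lower side, miR-222-3p was the most abundant of the 10 miRNAs chosen. It is made beside miR-221 on the X chromosome (chrX:19146901-19146923, in no annotated host gene) and acts in vessel walls and cell growth. Its level was 2592, 2454, 1739, 2066, 2191, 1987, 1973 and 2395 CPM in wild type replicates 2 to 9. In transgenic replicates 2, 3, 5, 6, 8, 9 and 10 it was 1724, 1470, 1892, 1025, 1981, 1782 and 2027 CPM. All 7 transgenic values were below the wild type mean of 2175 ± 288 CPM (SD, n = 8), their own mean was 1700 ± 351 (SD, n = 7), and 3 of them were below the lowest wild type library. The log2 difference was -0.36 (SE 0.143, 95% interval -0.66 to -0.054), with an unadjusted p of 0.0234 and an adjusted p of 0.996 in edgeR. Transgenic replicate 6 was the lowest of all, and without it the difference was -0.22 (unadjusted p = 0.087). Within the lane tagged L001 it was -0.34 (unadjusted p = 0.104) and within L002 -0.28 (unadjusted p = 0.315).

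miR-221-3p, which shares the seed of miR-222-3p and its primary transcript, had 1501 ± 597 CPM in wild type and 1451 ± 472 in transgenic libraries. Its difference was -0.049 (SE 0.248). Counts of both miRNAs added by their seed GCUACAU gave 3675 ± 710 against 3151 ± 596 CPM and a difference of -0.17 (SE 0.151, unadjusted p = 0.267, edgeR). Seed sums were fitted with scaling factors of their own, described further on, so this difference is not on exactly the scale of the single miRNAs.

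Of the other lower miRNAs, miR-467a-5p and miR-467b-5p held the same counts in every library and are one measurement. Their level was 261 ± 84.0 CPM against 197 ± 39.4, a difference of -0.40 (SE 0.186, unadjusted p = 0.0430, edgeR). Wild type replicate 9 had 454 CPM and the other wild type libraries at most 270.1, and without that library the difference was -0.21 (unadjusted p = 0.167). miR-301a-5p (chr11:87113017-87113038, in an intron of Ska2) had 6.43 ± 1.81 against 4.37 ± 1.30 CPM, a difference of -0.54 (SE 0.224). Without transgenic replicate 6, its lowest library at 2.38 CPM, the difference was -0.40 (unadjusted p = 0.094). miR-301a-3p, its opposite strand, had 1.55 ± 0.872 against 1.54 ± 0.770 CPM.

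miR-1306-3p (chr16:18284248-18284268) lies in an exon of Dgcr8, whose protein helps cut miRNA hairpins from their transcripts. It had 2.56 ± 0.806 against 1.58 ± 0.415 CPM, and 0 of 7 transgenic libraries were above the wild type mean. The difference was -0.65 (SE 0.248, unadjusted p = 0.0171, edgeR), and -0.49 (unadjusted p = 0.064) without wild type replicate 2, its highest library. The 5p strand of that hairpin, miR-1306-5p, had an estimate of 0.10 (SE 0.351). The last 4 of this side were miR-539-5p, miR-369-5p and miR-495-3p of the imprinted cluster on chromosome 12, and miR-877-3p, from an intron of Abcf1. Their differences were -0.32, -0.23, -0.21 and -0.28, with unadjusted edgeR p-values from 0.0617 to 0.103.

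**Figure D2:**
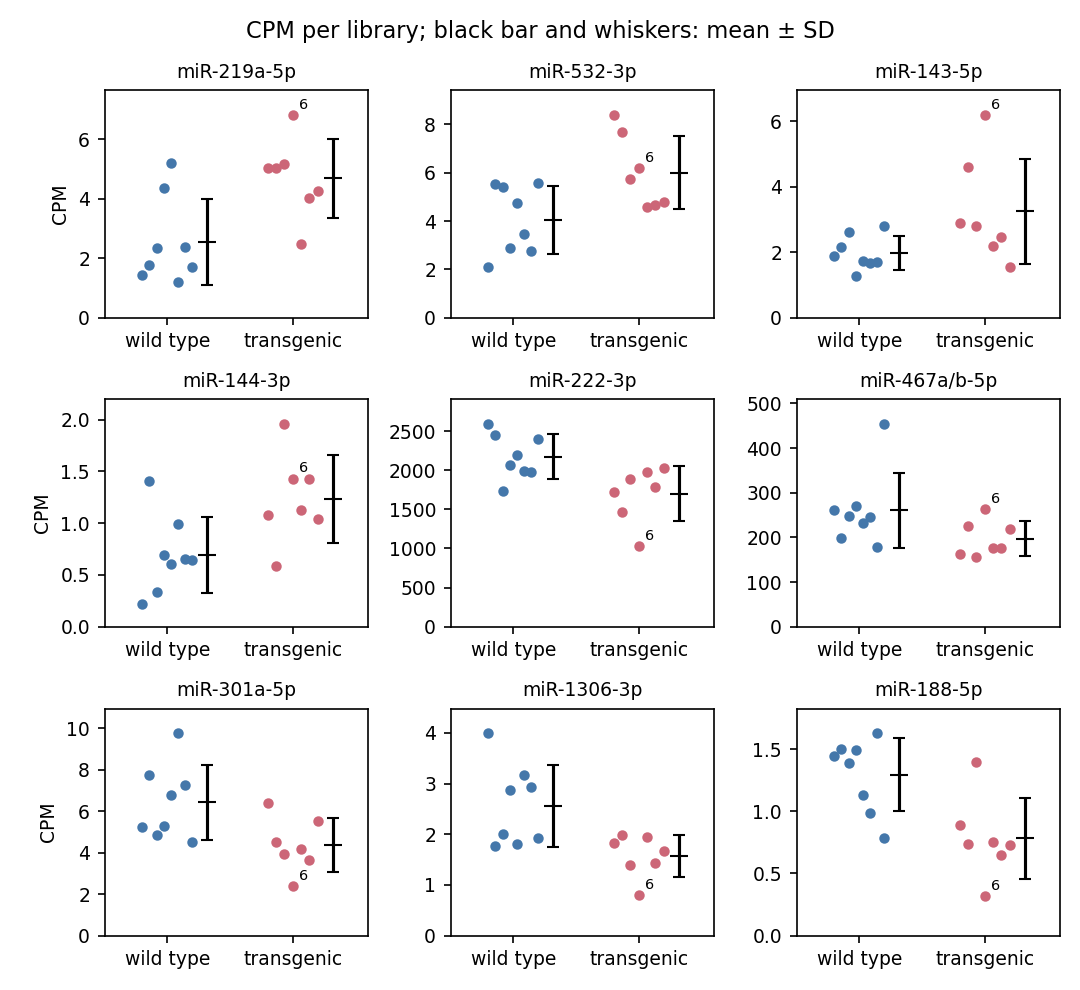
CPM (y axis, from 0) of the 10 miRNAs with an unadjusted p under 0.05, with miR-467a-5p and miR-467b-5p as 1 panel, in wild type (blue, 8 libraries) and transgenic (red, 7 libraries) CA1. Each point is 1 library, the black bar and whiskers are mean ± SD, and 6 marks transgenic replicate 6. In every panel the groups overlap, and replicate 6 is the lowest transgenic library for miR-222-3p, miR-301a-5p, miR-1306-3p and miR-188-5p.

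Adding the reads of miRNAs with the same seed gave no call either. Of 405 seed sums tested, 0 passed (0.0%) and 9 had an unadjusted p under 0.05 (2.22%), with a smallest adjusted p of 0.996 in edgeR (0.375 without wild type replicate 6). The sums were scaled by TMM factors of their own, whereas the CPM beside them use the factors of the single miRNAs, so a difference given for a sum need not match the ratio of its CPM means. The same reads of miR-219a-5p gave 0.92 among the sums and 0.87 among single miRNAs. The leading sums repeated single miRNAs, miR-219a-5p and miR-532-3p, followed by the seed GGUGCUA of miR-3070-3p and miR-3070-2-3p at -0.70 (SE 0.285). The sums of large families had smaller estimates. The let-7 seed GAGGUAG, which 11 miRNAs share, summed to 143871 ± 11577 CPM in wild type and 137060 ± 8397 in transgenic libraries (difference -0.019, SE 0.085). The miR-181 seed ACAUUCA, of 4 miRNAs studied at synapses and in ischemia, summed to 15507 ± 1344 against 16699 ± 2106 CPM (difference 0.17, SE 0.102, interval -0.050 to 0.38). The seed CAGUGCA of miR-148 and miR-152 had the widest spread of the abundant sums, 16610 ± 5245 against 14654 ± 7070 CPM (difference -0.14, SE 0.25).

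The balance between the strands of a hairpin was compared for 156 hairpins by the log2 ratio of 5p to 3p CPM, with 0.5 CPM added to each. By exact permutation over the 6435 divisions of the 15 libraries, 0 ratios passed after adjustment (0.0%) and 0 had an unadjusted p under 0.05 (0.0%). The smallest p was that of miR-340, whose log2 ratio was 1.26 ± 0.375 in wild type and 1.70 ± 0.437 in transgenic libraries (exact p = 0.056, adjusted 0.960, two-sided). miR-337 followed at 7.86 ± 0.463 against 7.45 ± 0.333 (exact p = 0.078), then miR-144 at 1.17 ± 0.460 against 0.41 ± 1.10 (exact p = 0.087). By strand, miR-340-5p had a log2 difference of 0.32 (SE 0.167) and miR-340-3p of -0.14 (SE 0.167).

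Across 25 lists of miRNAs for cell types, processes and families, 0 members were called in any list, against 0.0% of all 561. Neuron-enriched miRNAs had 11 of 25 positive estimates and a median difference of -0.020, the same as all miRNAs, and 24 of the 25 were bounded within 2-fold. The activity and plasticity list, which holds miR-132 and miR-138, had 8 of 19 positive and a median of -0.014. miR-132-3p, induced by neuronal activity, had 988 ± 126 against 874 ± 147 CPM (difference -0.18, SE 0.129), and miR-138-5p, a regulator of dendritic spines, 529 ± 106 against 515 ± 49.7 CPM. The medians of both lists, and those of the microglia and heart failure lists below, were positive when library totals alone were used for scaling, under which the median of all miRNAs was 0.026.

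miRNAs tied to memory decline gave no call. Of 8 listed, 5 had positive estimates and the median was 0.087, which leaving out 1 library moved to between 0.019 (without wild type replicate 7) and 0.14 (without wild type replicate 6). With the library score as a covariate, 4 were positive and the median was 0.015. miR-34c-5p, raised in models of memory loss, ranged from 29.7 to 100.3 CPM in wild type (median 66.7) and from 39.4 to 167 (median 75.1) in transgenic libraries, and the ranges overlapped for 6 of 7 transgenic libraries. Its difference was 0.34 (SE 0.308), and 0.080 without transgenic replicate 9. That of miR-34a-5p was 0.35 (SE 0.310), and 0.15 without transgenic replicate 6. All 5 tested members of the miR-34 and miR-449 family had positive estimates with a median of 0.29. The family's level varied between libraries by an SD of 0.54 on the log2 scale, and its median was 0.19 with the library score as a covariate and 0.080 without transgenic replicate 9. miR-181a-5p and miR-148a-3p, of the same memory list, had differences of 0.13 (SE 0.104) and -0.19 (SE 0.287).

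Lists related to oxygen supply and the heart held no call. Of 15 tested miRNAs of hypoxia and ischemia, 13 had positive estimates with a median of 0.13, beside an SD of 0.36 between libraries. With the library score as a covariate, the positive count was 11 and the median 0.046, and leaving out 1 library gave medians from 0.055 (without transgenic replicate 6) to 0.25 (without wild type replicate 6). miR-210-3p, the classic target of hypoxia-inducible factor, had 9.13 ± 1.99 against 8.77 ± 2.65 CPM and a difference of -0.048 (SE 0.196). Of the miRNAs of heart and skeletal muscle, 4 of 9 were tested. miR-1a-3p had 420 ± 65.5 against 501 ± 118 CPM (difference 0.25, SE 0.151), and miR-133a-3p 11.1 ± 5.03 against 15.9 ± 12.8 CPM (difference 0.52, SE 0.439, and 0.13 without transgenic replicate 6). miR-499-5p, which accompanies myosin in heart, had 8.51 ± 2.14 against 8.24 ± 4.01 CPM. Of 16 miRNAs reported in blood during heart failure, 7 were positive with a median of -0.029.

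Other cell types in the tissue gave these values. Astrocyte miRNAs had 8 of 10 positive estimates (median 0.14), and those of endothelium and vessel wall 8 of 12 (median 0.13). Those of red blood cells had 8 of 9 (median 0.063). The SD between libraries was 0.26 for the astrocyte, 0.16 for the vessel and 0.24 for the red cell list. The astrocyte median was 0.047 without transgenic replicate 5, the vessel median 0.060 without wild type replicate 7, and the red cell median ran from 0.024 (without wild type replicate 4) to 0.14 (without wild type replicate 2). With the library score as a covariate, 6 of 10 astrocyte (median 0.098), 7 of 12 vessel (0.049) and 8 of 9 red cell (0.055) estimates were positive. Within the vessel list, miR-143-5p and miR-222-3p had an unadjusted p under 0.05 in opposite directions, whereas miR-126a-3p, the defining endothelial miRNA, had 6179 ± 1225 against 5779 ± 1081 CPM (difference -0.096, SE 0.145). miR-486a-5p, a red cell miRNA whose counts equal those of miR-486b-5p, had 480 ± 69.7 against 502 ± 97.9 CPM. Microglia and leukocyte miRNAs had 3 of 7 positive (median -0.00039), and the inflammation list 4 of 9 (median -0.049). miR-21a-5p and miR-146a-5p, both raised in inflamed tissue, had differences of 0.12 (SE 0.143) and -0.061 (SE 0.145). miR-155-5p and miR-223-3p, with at most 1.79 and 0.787 CPM in any library, were under the filter.

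Some miRNAs of other tissue or regions spread widely between libraries. The miR-183, miR-96 and miR-182 cluster, of sensory cells and thalamus, had 0 of 3 positive estimates and a median of -0.39, beside an SD of 0.61 between libraries, and a median of -0.20 without wild type replicate 2. miR-182-5p ran from 27.04 to 118 CPM in wild type and from 33.3 to 61.2 in transgenic libraries, so the transgenic range lay inside the wild type one. Its difference was -0.42 (SE 0.294), and -0.20 without wild type replicate 2. Within lane L002, the differences of miR-96-5p and miR-183-5p were 0.42 and 0.039, whereas that of miR-182-5p stayed negative. miR-200b-3p, of epithelia such as the choroid plexus, ran from 19.6 to 135 CPM in wild type and from 31.6 to 259 in transgenic libraries (difference 0.46, SE 0.437, and 0.098 without transgenic replicate 6). The more abundant miR-204-5p of the same list ran only from 331 to 545 CPM over the 15 libraries, with a difference of -0.13. Of the 9 choroid plexus and ependyma miRNAs tested, 5 had positive and 4 negative estimates, with a median of 0.29 beside an SD of 0.27 between libraries. With the library score as a covariate that median was 0.049. miR-10b-5p, scarce in forebrain, had 4.25 ± 2.48 against 7.45 ± 6.55 CPM (difference 0.82, SE 0.527, and 0.40 without transgenic replicate 3). Its 3 highest transgenic libraries were above the wild type range, and its median was lower in transgenic libraries, 3.36 against 4.03 CPM. miR-10a-5p, the other tested miRNA of the forebrain-poor list, had a difference of -0.23. The part of such tissue in other results was not tested.

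Among families, let-7 and miR-98 had 2 of 11 positive estimates (median -0.093), the miR-29 family 5 of 7 (median 0.18), the miR-30 family 8 of 11 (median 0.039) and the miR-17 family with its paralogs 8 of 10 (median 0.12). miR-29a-3p had 6459 ± 1625 against 7251 ± 2314 CPM (difference 0.17, SE 0.196). The SD between libraries was 0.18 for let-7, 0.36 for miR-29, 0.20 for miR-30 and 0.46 for miR-17. All 11 let-7 members were bounded within 2-fold. Leaving out 1 library moved each of these 4 medians by over 1.5 times, for example let-7 to -0.015 (without wild type replicate 9), miR-29 to 0.062 (without transgenic replicate 5), miR-30 to 0.012 (without wild type replicate 3) and miR-17 to 0.27 (without wild type replicate 6). The imprinted miRNAs of Mirg and the Rtl1 antisense transcript had 14 of 44 positive (median -0.051, but 0.021 without transgenic replicate 6 and 0.013 without wild type replicate 9), and 42 of the 44 were bounded within 2-fold.

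**Figure D3:**
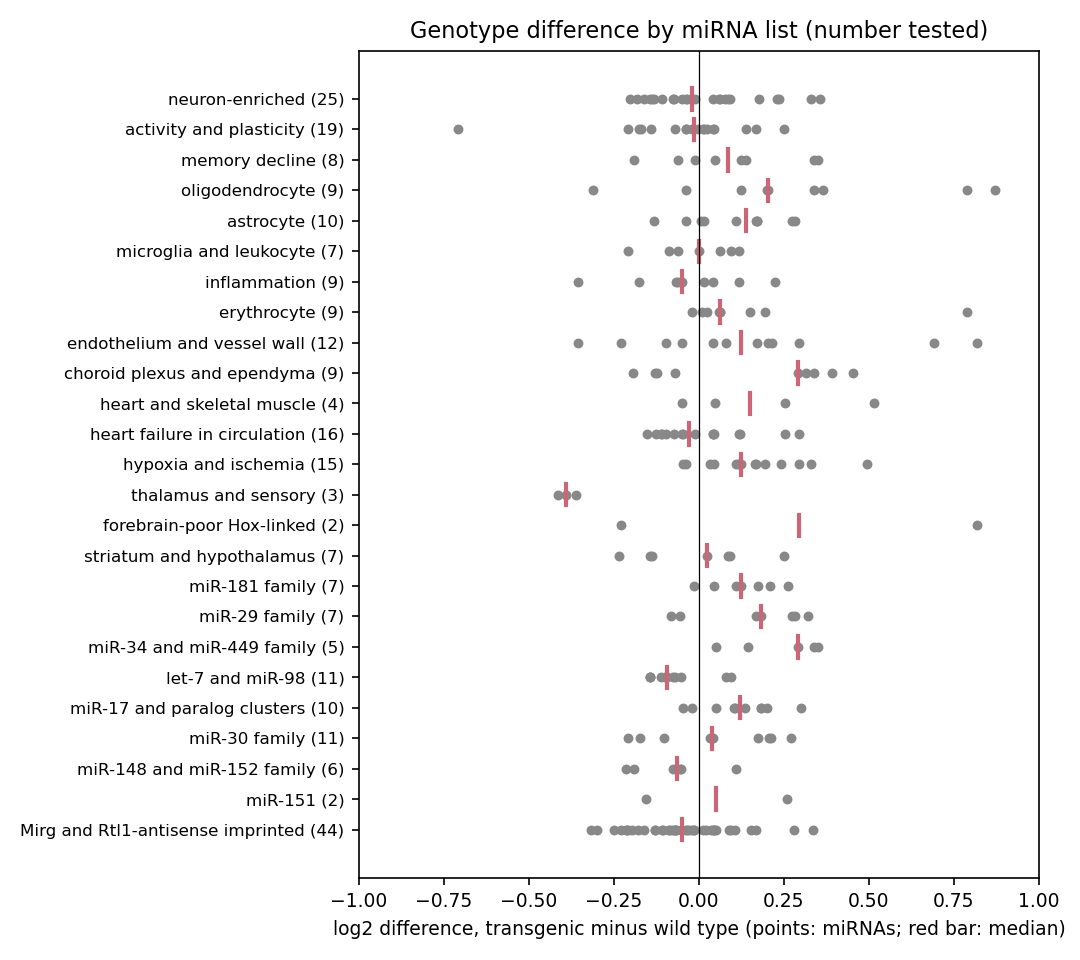
Log2 difference between genotypes (x axis) of the tested members of each of the 25 lists (y axis, number tested in brackets), 1 grey point a miRNA and a red bar at the list's median. Medians lie between -0.39 (3 miRNAs of thalamus and sensory cells) and 0.29, and single miRNAs between -0.71 and 0.87.

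The main difference between the 15 libraries lay along a pattern that both genotypes shared. The first principal component of log2 CPM held 46.6% of the variance and the second 9.38%. On the first, 6 libraries scored from 6.75 to 13.2 (wild type replicates 2, 7 and 8, transgenic replicates 8, 9 and 10). The other 9 scored from -11.7 to -3.38 (wild type replicates 3, 4, 5, 6 and 9, transgenic replicates 2, 3, 5 and 6). No library lay between -3.38 and 6.75. The mean score was 0.95 ± 9.62 in wild type and -1.09 ± 9.45 in transgenic libraries (exact permutation test, two-sided, p = 0.667, a comparison added after seeing the data). The high side held 1 library with the lane tag L001 in its column name and 5 with L002, and the low side 7 and 2. Lane tag and score therefore moved together but not fully. Genotype was not balanced over the lanes, with 5 wild type and 3 transgenic libraries in L001 and 3 and 4 in L002. The main fit held no lane term, and with lane as a covariate 0 of 561 miRNAs were called. Within L001 the genotype comparison called 0 miRNAs, with 13 of 596 at an unadjusted p under 0.05, and within L002 it called 0, with 6 of 570. What set the sides apart was not tested.

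miRNAs at the ends of this pattern spanned several-fold. miR-16-5p, of a seed family that restrains the cell cycle, had 396 to 837 CPM in the 9 libraries of the low side and 176 to 269 in the 6 of the high side. miR-369-3p, of the imprinted cluster, had 185 to 286 CPM against 44.1 to 76.5, and miR-335-5p, from an intron of the imprinted gene Mest, 112 to 318 against 48.02 to 93.9. In the opposite sense, miR-151-3p had 1242 to 2013 CPM on the low side and 3964 to 5044 on the high side, and miR-30a-3p 246 to 457 against 550 to 1055. For each of these 5 miRNAs the sides did not overlap, which is how the component was built and is no test. Between genotypes their log2 differences were 0.19, 0.15, 0.25, -0.15 and -0.21, with SEs from 0.332 to 0.442.

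Both strands of the miR-708 hairpin, which lies in an intron of Tenm4 (5p strand at chr7:96249450-96249472, 3p strand at chr7:96249496-96249517), stood at opposite ends. miR-708-5p had 131 to 216 CPM on the low side and 54.3 to 84.6 on the high side, whereas miR-708-3p had 815 to 1689 against 2371 to 3318. The log2 ratio of 5p to 3p thus ran from -5.92 in wild type replicate 7 to -2.19 in transgenic replicate 6. It averaged -3.97 ± 1.36 in wild type and -3.69 ± 1.44 in transgenic libraries (exact permutation p = 0.687, adjusted 0.960). The strand ratio thus differed widely between libraries and little between genotypes. miR-30e-3p and miR-30a-3p, which share a seed, both lay at the high end, while miR-30c-5p lay at the low end, with 6554 to 9289 CPM on the low side and 3143 to 3760 on the high side.

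Sequence composition went with the pattern. Across 478 tested miRNAs with a RefSeq sequence, the loading on the first component and the GC percentage had Pearson's r = 0.377 and Spearman's rho = 0.378, and r was 0.478 across the 152 with a mean of at least 100 CPM. These points share the 15 libraries and are a description. Loading and length had r = -0.011. By first base, positive loadings among the miRNAs with at least 100 CPM numbered 7 of 10 for G, 13 of 21 for C, 35 of 76 for U and 19 of 45 for A. Over all 478 they numbered 32 of 51, 52 of 102, 96 of 196 and 60 of 129.

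**Figure D4:**
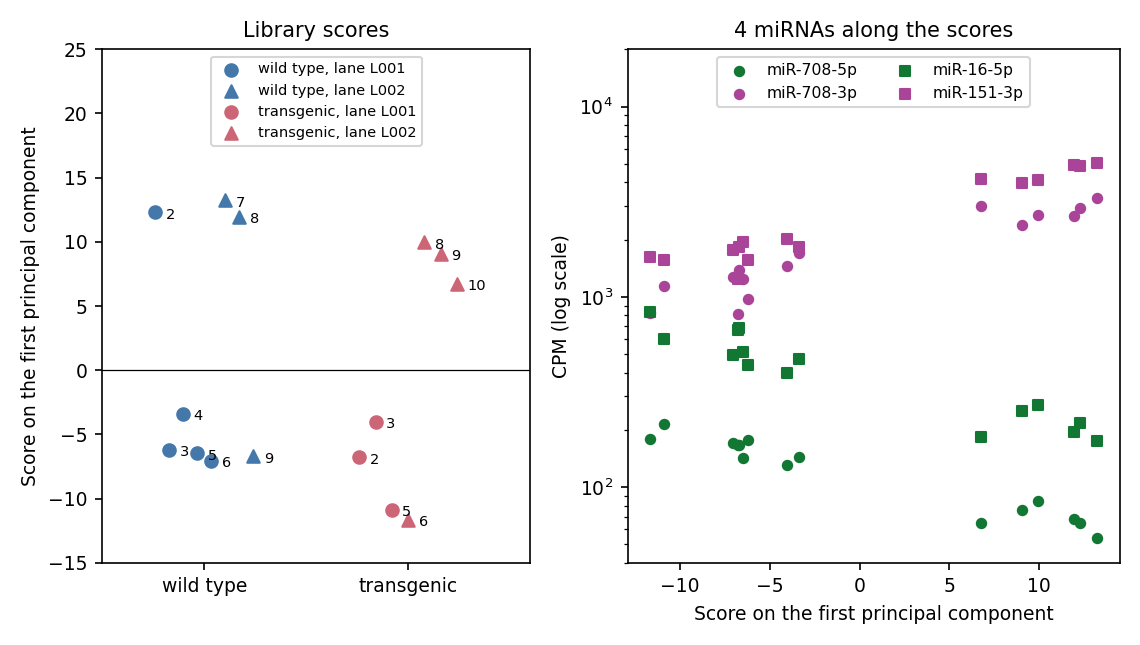
Left, score of each library on the first principal component of log2 CPM (y axis) by genotype and lane tag, numbered by replicate. Right, CPM on a log scale (y axis) of both miR-708 strands, miR-16-5p and miR-151-3p against that score (x axis), 1 point a library. Both genotypes have 3 libraries above 6 and the rest below -3, and the miRNAs in green fall where those in purple rise.

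Taking out the pattern made the comparison tighter and left it without a call. The score was computed from the same log2 CPM values and held the largest part of their variance. Tighter intervals and smaller p-values were therefore built in and are no test. With the score as a covariate in edgeR, an alternative added after seeing the data, 0 of 561 miRNAs were called (0.0%), 24 had an unadjusted p under 0.05 (4.28%), and 512 were bounded within 2-fold in place of 467. miR-219a-5p then had a difference of 0.80 (unadjusted p = 0.004), miR-532-3p 0.52 (unadjusted p = 0.010) and miR-222-3p -0.35 (unadjusted p = 0.012), with a smallest adjusted p of 0.919 over all miRNAs.

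The normalized values that the authors deposited gave another picture. They are on a log2 scale and cover 674 miRNAs, and the sources used here do not say how they were computed. limma on these values, for the same 15 libraries, called 339 of 674 miRNAs (50.3%), of which 217 were higher (32.2%) and 122 lower (18.1%) in transgenic libraries, and 395 had an unadjusted p under 0.05 (58.6%). limma on log2 CPM of the same 674 miRNAs called 0 (0.0%), with 21 at an unadjusted p under 0.05 (3.12%). The median difference over the table was 0.11 in the authors' values and -0.026 in log2 CPM.

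Single miRNAs show the gap. In the authors' values, miR-335-5p ran from 11.1 to 12.8 in wild type and from 13.2 to 14.2 in transgenic libraries without overlap, a difference of 1.76 (SE 0.218, adjusted p = 3.9e-05, limma). In counts, 5 of 7 transgenic libraries lay within the wild type range and replicates 5 and 6 above it, with a difference of 0.25 (SE 0.386). miR-31-5p ran from 10.9 to 11.6 against 12.1 to 12.7 in the authors' values, a difference of 1.09 (SE 0.129). In counts it had 48.3 ± 17.7 against 49.8 ± 21.8 CPM and a difference of 0.043 (SE 0.283). miR-151-3p had -1.17 (SE 0.229) in the authors' values and -0.15 (SE 0.351) in counts. By contrast, miR-222-3p had -0.39 in the authors' values and -0.36 in counts, and miR-219a-5p 1.03 and 0.87, so for these 2 miRNAs the sources were close.

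The differences in the authors' values followed the library pattern. Across the 561 miRNAs tested, the log2 difference in the authors' values and the loading on the first component of log2 CPM had Pearson's r = -0.898 and Spearman's rho = -0.912. For the log2 difference in counts, r was -0.383, and the differences from both sources had r = 0.468 with each other. These correlations are across miRNAs of the same 15 libraries, which are not independent replicates, and are given as a description. In log2 CPM the mean score on that component was 0.95 ± 9.62 in wild type and -1.09 ± 9.45 in transgenic libraries, as given above (exact permutation test, two-sided, p = 0.667). With this spread over 15 libraries, the test does not show that the genotypes were equal on it. Which source is nearer to the tissue was not tested.

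**Figure D5:**
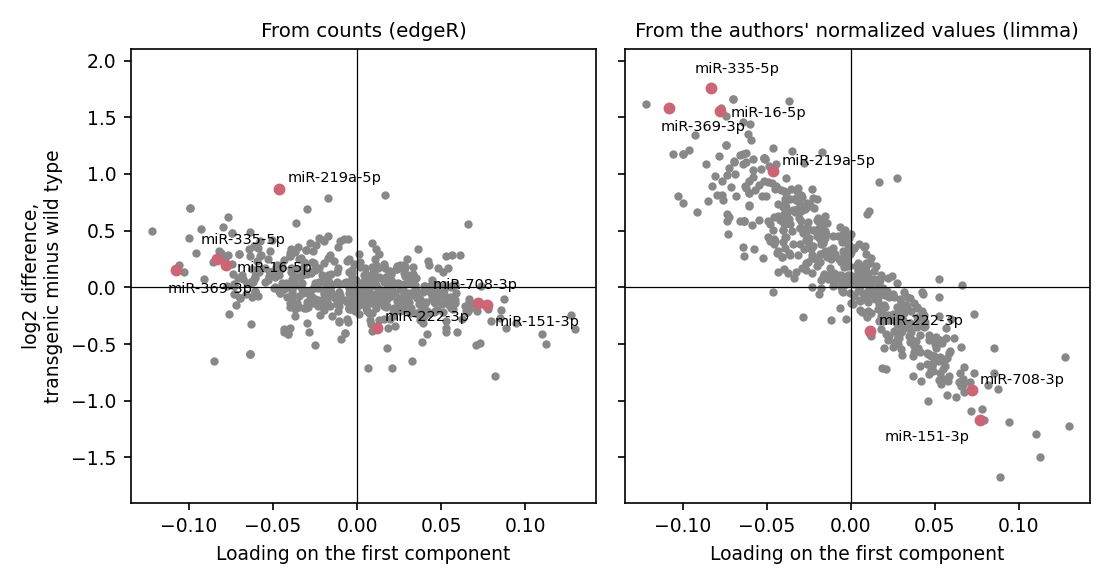
Log2 difference between genotypes (y axis) against the loading on the first component of log2 CPM (x axis) for the 561 miRNAs tested, from counts with edgeR (left) and from the authors' normalized values with limma (right). On the right the points fall along a steep line from 1.76 for miR-335-5p to below -1 for miR-151-3p. On the left miR-335-5p lies at 0.25 and miR-151-3p at -0.15, and all points lie between -0.78 and 0.87.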

How the data were processed

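All main tests used the whole-number counts that the authors deposited, in a table of 1915 mature miRNA entries. FastQC 0.11.5 and the build mm10 are named in the submitters' processing notes. The aligner, annotation and counting were not given in the sources used here. A further table that the authors deposited holds normalized log2 values for 674 miRNAs, made in a way not stated. A table of module memberships was not used.

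Groups came from the genotype and agent labels, and lanes from the tags in the column names. Counts were tested with edgeR 4.0.16 (quasi-likelihood, TMM factors, R 4.3.3) after filterByExpr (minimum count 10, total 15), which kept 561 miRNAs. Adjusted p-values (Benjamini-Hochberg) under 0.05 were called, and all tests were two-sided. CPM are counts over library total times TMM factor, per 1000000. Log2 differences are transgenic minus wild type. Of the tested miRNAs, 26 hold the same counts as another entry. Near-identical family members may share reads. Principal components used log2 CPM with a prior count of 2. Library measures and strand ratios were compared by exact permutation (smallest possible p 0.00031). DESeq2 1.42.0, limma 3.58.1 and sva 3.50.0 served as alternatives. Scripts were tested on simulated data.

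The members and the lists of miRNAs were chosen with earlier results of these data known. The miRNAs named are the 10 higher and 10 lower with the smallest unadjusted p, the 10 most abundant, the 2 most abundant of each list, and a fixed set. miR-369-3p, miR-335-5p, miR-16-5p, miR-30b-5p, miR-708-5p, miR-708-3p, miR-30a-3p, miR-31-5p, miR-338-3p and the strands or neighbours set beside leading miRNAs were chosen after their values were seen. Of the tested miRNAs, 478 had a RefSeq sequence. Positions are from RefSeq and host genes from GENCODE, both on GRCm38, the assembly mm10 denotes. Depth was 6.01 to 24.8 M counts a library, and reads carry no molecular identifiers.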

Additional observations from a re-analysis of the deposited data

Results flagged for a closer look

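Of 138 groups of values examined (each named miRNA in each genotype), 8 held a library far from the others by Dixon's test at the 95% level, where chance gives about 1 in 20. In transgenic replicate 6, miR-1306-3p was 0.794 CPM and the other transgenic libraries had 1.40 to 1.98. The same library had 79.3 CPM of miR-183-5p (the others 27.1 to 40.7) and 12.1 CPM of miR-10a-5p (the others 21.8 to 32.5). Wild type replicate 9 had 454 CPM of miR-467a-5p and of miR-467b-5p, which hold the same counts, against 178 to 270.1 in the other wild type libraries. Wild type replicate 4 had 334 CPM of miR-486a-5p and of miR-486b-5p, which are again 1 measurement, against 461 to 563. Transgenic replicate 5 had 141 CPM of miR-92a-3p, and the other transgenic libraries had 196 to 233.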

How the results depend on the processing

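No alternative run on the counts gave a call for a miRNA, seed sum or strand ratio. At an unadjusted p under 0.05, edgeR passed 6 to 24 of the filtered miRNAs under the alternatives that tested over 500, and 73 of 1346 without a filter. The exception in values was limma on the authors' normalized values, with 339 calls, and how those values were made was not tested. Leaving out each library gave 7 to 14 unadjusted miRNAs, 439 to 483 bounded within 2-fold, 4 (without wild type replicate 8) to 11 unadjusted seed sums and 0 to 4 (without wild type replicate 4) unadjusted strand ratios. Within single lanes, with fewer libraries, 279 of 570 (L002) and 354 of 596 (L001) were bounded within 2-fold. With wild type replicate 1 put back, 377 of 563 were. Unadjusted seed sums numbered 20 with the library score or a surrogate variable, 6 in L001, 5 in L002 and 0 at a mean of at least 10 CPM. Unadjusted miRNAs numbered 24 with the score, 17 with lane as a covariate and 3 of 343 at that mean. Of 6 pairs of equal replicate number, 4 had correlated deviations over 0.1 and 2 of 6 correlated best with their own number, so the numbers were not taken as pairs. With a replicate block, 0 miRNAs were called and 13 of 572 had an unadjusted p under 0.05, as had 6 strand ratios.

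The difference in log10 depth changed sign with wild type replicate 1 put back (0.13), under the replicate block (0.016) and among the libraries left out (-0.065 to 0.037), as did the percentage in the most abundant miRNA (-1.14 to 0.0013). The neuron median was 0.059 with the block, 0.13 with wild type replicate 1 back and 0.070 in L001. The inflammation median was 0.13 with that replicate, 0.069 in L002 and -0.059 to 0.11 leaving out libraries. The thalamus median was -1.29 and that of miR-151 -0.75 with that replicate, and the Mirg median was 0.031 in L001. All other list medians, 765 of 775, moved by less than the SD between libraries. For named miRNAs, 2303 of 2495 values kept their sign.

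Some log2 differences changed sign as follows, and the cause was not tested. Furthest from 0 in the main fit were those of miR-96-5p (-0.39) and miR-183-5p (-0.36). With the library score or a surrogate variable as covariate, the differences were miR-99a-5p (0.0024 and 0.0019), miR-127-3p (0.050 and 0.049), miR-125b-5p (-0.044 and -0.047), miR-124-3p (-0.024 and -0.026) and miR-30c-5p (-0.090 and -0.090). Likewise miR-92a-3p (0.039 and 0.038), miR-151-3p (0.035 and 0.032), miR-381-3p (0.042 and 0.042), miR-708-5p (-0.041 and -0.045), miR-31-5p (-0.051 and -0.061), miR-532-5p (0.11 and 0.11) and miR-144-5p (-0.29 and -0.29). Lane as a covariate gave miR-30d-5p -0.0019 and miR-221-3p 0.071. Library totals gave miR-99a-5p (0.0031), miR-26a-5p (0.0065), miR-92a-3p (0.032), miR-499-5p (0.011), miR-210-3p (0.026) and miR-532-5p (0.012). Upper quartile factors gave miR-92a-3p (0.00086) and miR-532-5p (0.0025). voom gave miR-92a-3p (0.0043), miR-221-3p (8.4e-05), miR-532-5p (0.0015) and miR-144-5p (-0.31). No filter gave miR-99a-5p (0.0012), miR-92a-3p (0.020), miR-210-3p (0.0037) and miR-532-5p (0.013). The replicate block gave miR-92a-3p (0.065), miR-148b-3p (0.12), miR-146a-5p (0.059), miR-210-3p (0.097) and miR-532-5p (0.057). Wild type replicate 1 put back gave miR-128-3p (0.0077), miR-99a-5p (0.082), miR-26a-5p (0.14), miR-218-5p (0.031), miR-138-5p (0.13) and miR-486a-5p with miR-486b-5p (-0.24). It also gave miR-126a-3p (0.0093), miR-146a-5p (0.092), miR-499-5p (0.052), miR-451a (-0.083) and miR-221-3p (0.13). Lane L001 alone gave miR-26a-5p (0.013), let-7f-5p (0.0036), miR-138-5p (0.018), miR-92a-3p (0.10), miR-30d-5p (-0.074), miR-148b-3p (0.19), miR-499-5p (0.081), miR-210-3p (0.20), miR-31-5p (-0.023) and miR-221-3p (0.15). Lane L002 alone gave miR-128-3p (0.045), miR-99a-5p (0.14), miR-26a-5p (0.051), miR-218-5p (0.12), miR-7a-5p (0.015), miR-138-5p (0.039) and miR-204-5p (0.030). It also gave miR-183-5p (0.039), miR-181b-5p (-0.051), miR-146a-5p (0.18), miR-96-5p (0.42), miR-221-3p (0.054) and miR-144-5p (-0.10).

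Leaving out each library gave ranges across 0 for miR-128-3p (-0.11 to 0.013), miR-99a-5p (-0.090 to 0.057), miR-26a-5p (-0.084 to 0.023), let-7f-5p (-0.090 to 0.012), miR-127-3p (-0.16 to 0.050), miR-125b-5p (-0.047 to 0.11) and miR-138-5p (-0.090 to 0.044). The same held for miR-124-3p (-0.021 to 0.22), miR-30c-5p (-0.043 to 0.18), miR-29b-3p (-0.075 to 0.47), miR-92a-3p (-0.077 to 0.096), miR-30d-5p (-0.030 to 0.15), miR-148b-3p (-0.14 to 0.028) and miR-151-3p (-0.29 to 0.017). It held for miR-381-3p (-0.15 to 0.063), miR-146a-5p (-0.14 to 0.059), miR-499-5p (-0.23 to 0.11), miR-210-3p (-0.20 to 0.048), miR-96-5p (-0.58 to 0.0017), miR-708-5p (-0.023 to 0.23) and miR-708-3p (-0.30 to 0.017). The last were miR-31-5p (-0.12 to 0.21), miR-221-3p (-0.15 to 0.12), miR-532-5p (-0.12 to 0.11) and miR-144-5p (-0.25 to 0.22). Low depth limits miRNAs under 10 CPM, such as miR-144-3p and miR-188-5p.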
